A study of Mus musculus with 4 samples.

Results

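The Dlx homeobox family of the mouse, Dlx1 to Dlx6, was followed across 4 two-colour microarrays. Every non-control probe that the array design names for one of the 6 genes was taken, which gave 7 probes of 55681 on the array and 6 genes of the 22328 with a gene symbol. Dlx1 had 2 probes and each of the other genes had 1. A total of 6 probes, 1 for each gene, passed the filter on dim probes and entered the tests: its signal was well above background on 3 or more arrays, in 1 and the same channel. The remaining probe, the other one for Dlx1, is described separately.

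Each array compared a pair of donor-matched cell preparations from mice 2 weeks old that carry EGFP under a 2.3 kb type I collagen promoter. Cells of the dental pulp, labelled as primary odontoblasts (the cells that make dentin), carried the red dye Cy5, and cells of the calvarial bone, labelled as osteoblasts (the cells that make bone), carried the green dye Cy3. Both were released by enzymatic digestion and sorted on GFP, so both carry the same transgene, whose promoter is active in odontoblasts and in osteoblasts and does not by itself separate them. The strain is given as C57BL/6 for the Cy5 samples, and the sources used here do not give the number of animals behind each array. Total RNA was extracted with Trizol, 250 ng of each cDNA was labelled, and the dyes were not exchanged on any array, so dye and tissue cannot be told apart. The labels do not say that the 4 arrays come from separate litters or cell preparations, so the p-values cover no more than the spread among these arrays, which may be technical.

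The log2 ratio below is always Cy5 over Cy3. Above 0 the channel labelled odontoblast was brighter, and below 0 the channel labelled osteoblast was. A gene was called changed where limma's moderated test of the mean ratio against 0 gave a Benjamini-Hochberg adjusted p under 0.05 over all features of the array.

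Most cell type markers ran against these labels. Dspp, a gene of the dentin matrix, gave more Cy3 signal on all 4 arrays (mean log2 ratio -1.95 ± 0.74, SD, n = 4, adjusted p = 0.0606, limma). Nes, with ratios from -3.07 to -1.05, and Dmp1 (-1.71 ± 0.92, SD) lay on the same side. Ifitm5, a gene of bone-forming osteoblasts, was higher in Cy5 (5.05 ± 1.14, SD, adjusted p = 0.0171, limma), and so was the collagen gene Col1a2 (2.79 ± 0.67, SD, adjusted p = 0.0235, limma). Of 8 odontoblast markers 7 were measured, 5 with a mean ratio below 0 and 2 above, Smpd3 (1.41 ± 1.25, SD) and Cpne7 (0.29 ± 0.44, SD). The median ratio was -1.95 for these 7 and 2.79 for the 9 osteoblast markers. Channels are therefore named by their dye and their label. If the labels of both channels were exchanged, the sign of every ratio given here would turn, and its size would not. The median spot was 7.10 to 8.21 times the local background in Cy5 and 10.9 to 16.0 times in Cy3, and no spot was saturated.

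Dlx proteins are homeodomain transcription factors related to the Distal-less protein of the fly. The mammalian genes lie in 3 linked pairs, Dlx1 with Dlx2, Dlx3 with Dlx4, and Dlx5 with Dlx6, and the genes of a pair run towards each other and share enhancers between them. In the embryonic jaw their nested expression gives the neural crest cells of the upper and lower jaw their identity, and in teeth and bone they act in the differentiation of mesenchyme, enamel organ and osteoblasts. Noncoding RNAs are transcribed from the same loci: Dlx1as, Dlx4os, Dlx6os1 and Dlx6os2.

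All values below rest on what these probes can bind, so their sequences and places are shown first. Probe coordinates are those of the array design on build mm9, and every probe is 60 bases long. For the coding genes the first 30 bases are printed, 5′ to 3′.
Dlx1 (chr2:71371499-71371558, + strand): gttgtcaaaaacgtttggacaagaacacct
Dlx1, the other probe (chr2:71367411-71367470, + strand): cgcgactccgcgatccagagaccgcggccg
Dlx2 (chr2:71381553-71381612, - strand): gatttgaatttgtttttatcttgtcctaaa
Dlx3 (chr11:94986262-94986357, + strand): ttttttagagcaaccaagagaagcaggtcc
Dlx4 (chr11:95001777-95001836, - strand): cctcgctgttgcctcgatcaaagaaactgc
Dlx5 (chr6:6828063-6828122, - strand): gtgttgtgctggtttagaaatcagaaagaa
Dlx6 (chr6:6815092-6815151, + strand): acagtgatcgaaaacggggaaatcaggttc

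The strands show the pairing. In each pair 1 gene is read from the + strand and the other from the - strand, and the probes of a pair lie 9994 bases apart for Dlx1 and Dlx2, 15419 bases for Dlx3 and Dlx4, and 12911 bases for Dlx5 and Dlx6. The Dlx3 probe covers 96 bases of the genome with its 60 letters, and the other Dlx probes cover 60. No mm9 annotation was used here, so exons are not assigned.

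No Dlx gene passed the test, with 0 of 6 called, against 404 of 18553 genes, or 2.18%, on the whole array. Of all genes, 1.31% were called with more Cy5 signal and 0.868% with more Cy3 signal. Over single probes, 0 of 6 Dlx probes were called and 1.62% of all probes were. At an unadjusted p under 0.05 there were 4 Dlx genes of 6, against 21.5% of all genes. In direction the family was uneven. Dlx1, Dlx2, Dlx3 and Dlx4 had more Cy3 signal on all 4 arrays, which is 4 of 6 genes, where 15.4% of all genes had more Cy3 signal on all 4. These were the genes with an unadjusted p under 0.05, and 10.1% of all genes had such a p with more Cy3 signal. On array 3, however, Dlx2 (-0.17) and Dlx4 (-0.14) were well above background in neither channel. Their sign on that array is therefore uncertain, and the count of 4 rests on it. Neither Dlx5 nor Dlx6 kept 1 sign over the arrays. The median of the 6 mean ratios was -1.11, and the median over all genes was 0.01.

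**Figure D1:**
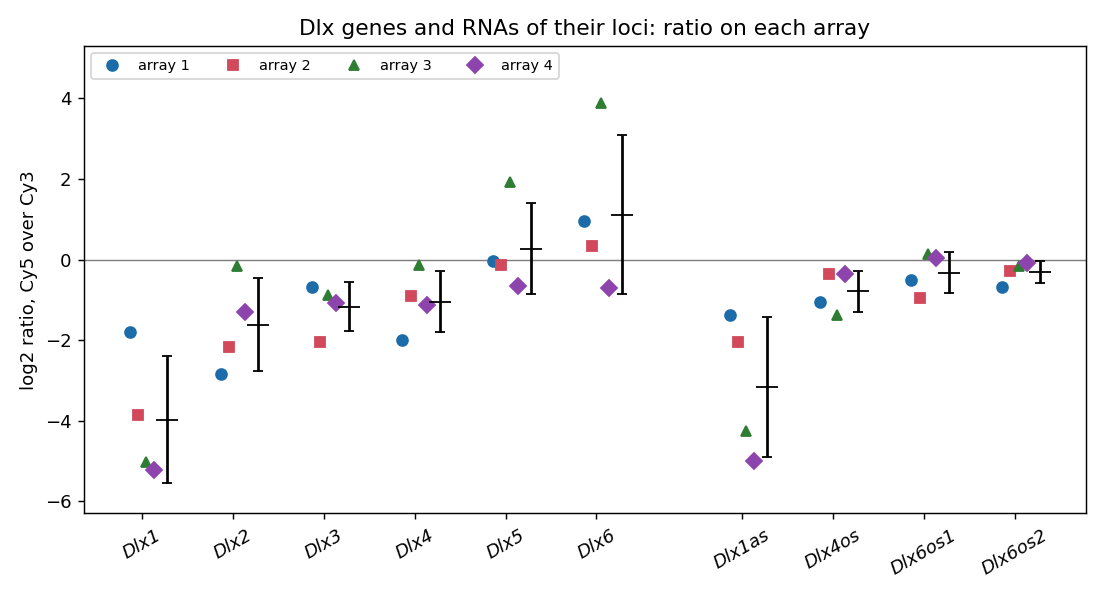
Log2 ratio of Cy5 over Cy3 (y axis) for the 6 Dlx genes and the 4 noncoding RNAs of their loci, with a point for each array and a bar for the mean with its SD. The points of Dlx1 to Dlx4 and of Dlx1as all lie below 0, and array 3 holds the highest point of Dlx5 and of Dlx6.

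Dlx1, which acts in the upper jaw and in forebrain interneurons, had the lowest ratio of the family. Its log2 ratio was -1.79, -3.87, -5.02 and -5.21 on arrays 1 to 4, that is 3.46, 14.6, 32.5 and 37.0 times more Cy3 signal. Arrays 3 and 4 lay close together and array 1 stood highest, but no array came near 0. The mean was -3.97 ± 1.57 (SD, n = 4), a 15.7-fold difference with a moderated standard error of 0.60, and the adjusted p was 0.0517 (limma), just above the threshold. Only 0.146% of the genes tested had a lower mean ratio, while 94.3% had a smaller SD over the arrays.

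The arrays differed in Dlx1 through the Cy5 channel. The normalized Cy3 level of its probe was 12.52, 12.52, 12.44 and 12.53 on the log2 scale, a range of 0.09. The Cy5 level was 10.73, 8.65, 7.42 and 7.32, a range of 3.41. Neither channel fell to the background on any array, so the Cy5 values are measured and not set by it. In bulk RNA of sorted cells, fewer cells with a transcript and less of it per cell cannot be told apart.

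Dlx2, the partner of Dlx1 in the jaw and forebrain, also had less Cy5 than Cy3 signal, but with another order of arrays. Its log2 ratio was -2.84, -2.16, -0.17 and -1.31 on arrays 1 to 4. Array 1 was the lowest here and the highest for Dlx1, and array 3 was close to 0. The mean was -1.62 ± 1.15 (SD, n = 4), a 3.08-fold difference (adjusted p = 0.163, limma). The probe was close to the background: it was well above it on 1 array in Cy5 and on 3 arrays in Cy3. Cy3 levels were 9.50, 8.36, 6.48 and 7.26, and Cy5 levels were 6.66, 6.20, 6.31 and 5.94, so the Cy5 side hardly moved between arrays and may lie lower than its values show. With the scanner software's own processed signals, the mean ratio was -3.60 (adjusted p = 0.103, limma).

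The difference between Dlx1 and Dlx2 ran from 1.05 on array 1 through -1.71 and -4.85 to -3.90 on array 4. Dlx1 had the lower ratio on 3 of 4 arrays. The mean difference was -2.35 ± 2.62 (SD, n = 4), and an exact two-sided sign-flip test gave p = 0.25 (adjusted p = 0.375 over the 3 pairs compared). With 4 arrays the smallest p of that test is 1 in 8, so no pair could pass the threshold. The mean difference was -0.81 with the scanner software's processed signals or the deposited value table, and -1.52 without array 3.

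Dlx3, a gene of the placodes, the enamel organ, hair and bone whose human counterpart is mutated in tricho-dento-osseous syndrome, had the steadiest ratio among the coding genes. Its log2 ratio was -0.69, -2.05, -0.87 and -1.09 on arrays 1 to 4. Of these, 3 arrays lay within a narrow range and array 2 lay lower. The mean was -1.17 ± 0.61 (SD, n = 4), a 2.26-fold difference with a moderated standard error of 0.27 (adjusted p = 0.122, limma). Levels were 12.24, 10.44, 10.99 and 11.47 in Cy5 and 12.92, 12.49, 11.86 and 12.56 in Cy3, all well above background. The Cy5 levels of arrays 2 to 4 were below every Cy3 level, and the Cy5 level of array 1 was above the Cy3 level of array 3.

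Dlx4, the other member of that pair, had a ratio of -1.99, -0.91, -0.14 and -1.14 on arrays 1 to 4. The mean was -1.04 ± 0.76 (SD, n = 4), a 2.06-fold difference (adjusted p = 0.186, limma). As for Dlx2, array 1 was the lowest and array 3 was close to 0. The probe was well above background on 3 arrays in each channel, and on array 3 in neither. Its Cy3 levels were 8.90, 7.93, 6.77 and 8.55, and its Cy5 levels were 6.92, 7.03, 6.63 and 7.41. The ratio of Dlx3 minus that of Dlx4 was 1.30, -1.14, -0.73 and 0.05, with a mean of -0.13 ± 1.07 (SD, n = 4, exact sign-flip p = 1). That mean took the opposite sign with the scanner software's processed signals (0.38), with the deposited value table (0.38), with median centring (0.15), and without array 2 (0.21) or array 3 (0.07).

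Dlx5, a factor of osteoblast differentiation and of lower jaw identity, gave nearly equal signal in both channels on 2 arrays. Its log2 ratio was -0.04, -0.13, 1.93 and -0.67 on arrays 1 to 4, so array 3 alone was above 0. The mean was 0.27 ± 1.14 (SD, n = 4, adjusted p = 0.774, limma), and without array 3 it was -0.28. Cy5 levels were 12.04, 11.92, 13.04 and 11.19, and Cy3 levels were 12.07, 12.06, 11.11 and 11.85. Array 3 thus had the highest Cy5 level and the lowest Cy3 level of this gene.

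Dlx6, which acts with Dlx5 in the lower jaw, had the widest range of the family. Its log2 ratio was 0.95, 0.33, 3.88 and -0.70 on arrays 1 to 4. The mean was 1.11 ± 1.97 (SD, n = 4, adjusted p = 0.464, limma), and without array 3 it was 0.19. The Cy3 level was 11.73, 11.47, 8.26 and 11.86, so array 3 stood well below the other arrays. The Cy5 level was 12.67, 11.80, 12.14 and 11.16. Among the genes tested, 97.7% had a smaller SD over the arrays than Dlx6.

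Dlx5 and Dlx6 put the arrays in the same order, from array 3 as the highest through arrays 1 and 2 to array 4 as the lowest. The ratio of Dlx5 was below that of Dlx6 on 3 of 4 arrays, with differences of -0.98, -0.46, -1.95 and 0.04. The mean difference was -0.84 ± 0.85 (SD, n = 4, exact sign-flip p = 0.25, adjusted p = 0.375), and without array 3 it was -0.47.

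**Figure D2:**
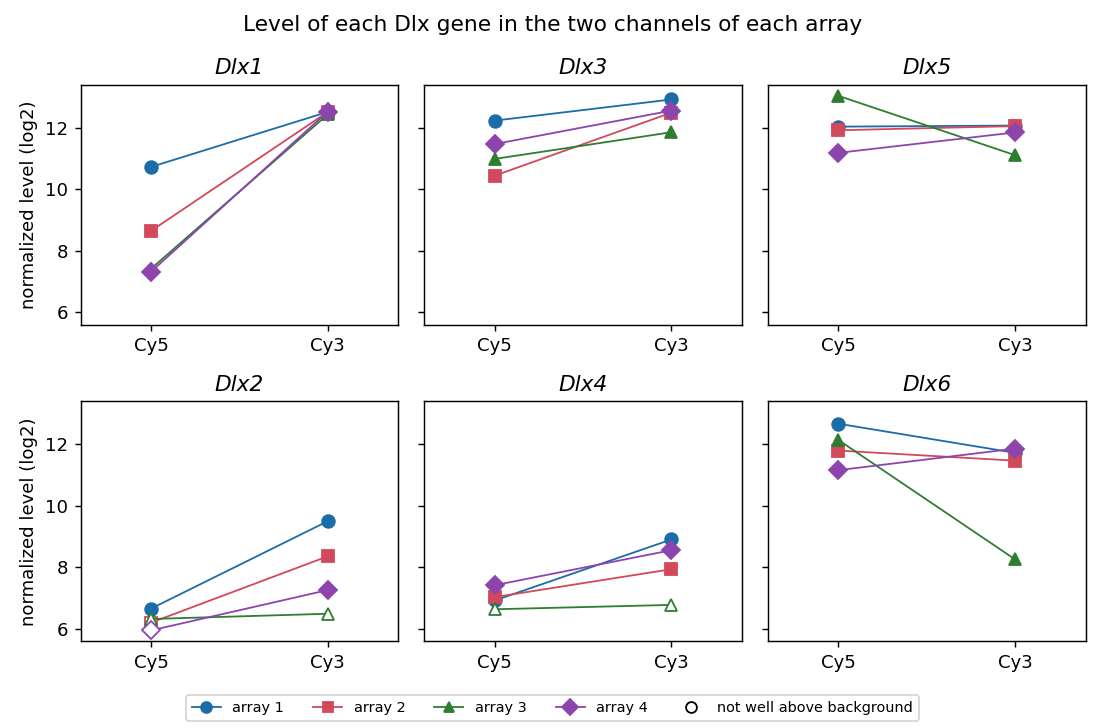
Normalized log2 level (y axis) of each Dlx probe in the Cy5 and Cy3 channels, with a line for each array and open symbols where the probe was not well above background. For Dlx1 the Cy3 levels of the 4 arrays coincide near 12.5 and the Cy5 levels spread from 7.32 to 10.73, while for Dlx6 the Cy3 level of array 3 drops to 8.26. Levels of different probes are not comparable.

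Array 3 moved with several of these values. It had the lowest Cy3 level of all 4 arrays for each of the 6 genes. Its share of probes well above background in Cy3 was 67.8%, against 74.5% to 80.9% on the other arrays. Over the probes kept by the filter on dim probes, the SD of the ratios was 1.22 on array 3 and 0.76 to 0.95 on the others. Across the same probes, ratios correlated between arrays with r from 0.30 to 0.49, a description over probes that share the array. The part of these features in the Dlx5 and Dlx6 values was not tested.

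The spread over arrays was large for the family. The difference between the highest and lowest array had a median of 2.63 over the 6 genes and of 1.22 over all genes measured on 4 arrays. The share of genes with a smaller SD was 94.3% for Dlx1, 85.3% for Dlx2, 55.6% for Dlx3, 67.0% for Dlx4, 84.8% for Dlx5 and 97.7% for Dlx6. The order of the mean ratios, from lowest to highest, was Dlx1, Dlx2, Dlx3, Dlx4, Dlx5 and Dlx6. Of the steps in that order, only pair members were compared by a test, which 4 arrays are too few to pass, so whether neighbours in the order differ is not settled. Dlx3 and Dlx4 lay 0.13 apart, which is less than the SD of either.

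**Figure D3:**
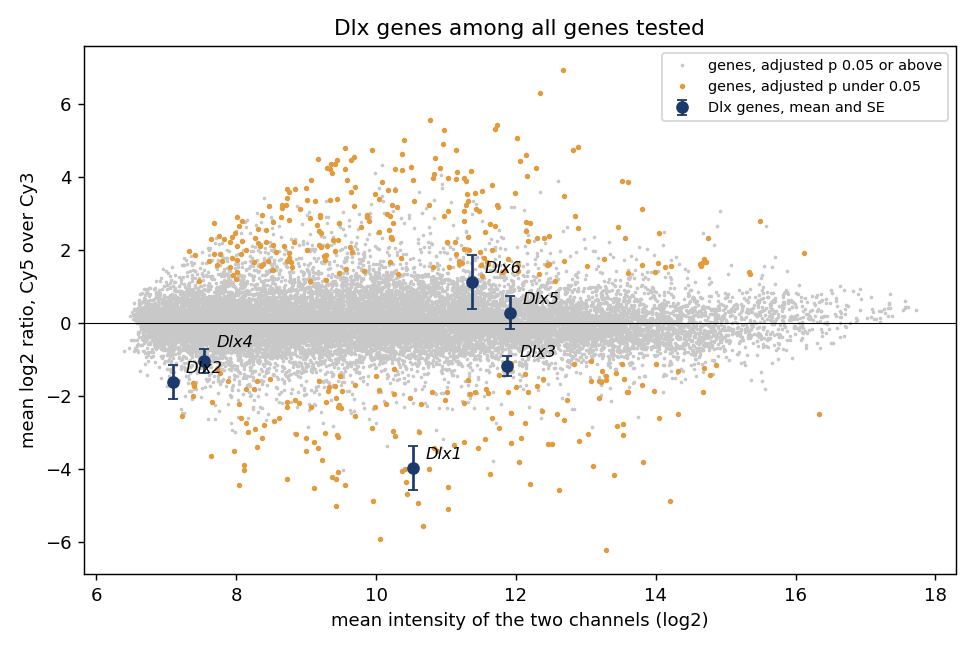
Mean log2 ratio (y axis) against the mean log2 intensity of both channels (x axis) for all genes tested, with called genes in orange and the 6 Dlx genes as large points with their moderated standard error. Dlx1 at -3.97 lies among called genes, Dlx2 and Dlx4 lie at the dim end, and Dlx5 and Dlx6 have error bars that reach towards or across 0.

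The noncoding RNAs of the loci were read by probes of their own, whose full sequences are given because these RNAs come from the Dlx loci themselves. Only the probes of Dlx1as and Dlx6os2 lie within 1 kb of a Dlx probe.
Dlx1as (chr2:71370875-71370934, - strand): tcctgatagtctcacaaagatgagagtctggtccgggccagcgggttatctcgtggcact
Dlx4os (chr11:95020238-95020297, + strand): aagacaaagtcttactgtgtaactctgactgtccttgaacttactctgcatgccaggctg
Dlx6os1 (chr6:6771400-6771456, - strand): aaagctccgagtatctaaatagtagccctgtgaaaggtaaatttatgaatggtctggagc
Dlx6os2 (chr6:6814483-6814542, - strand): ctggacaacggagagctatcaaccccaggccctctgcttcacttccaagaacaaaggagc

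In the RefSeq gene table (GRCm38.p6), Dlx1 overlaps Dlx1as, Dlx4 overlaps Dlx4os, and Dlx6 overlaps both Dlx6os1 and Dlx6os2. Whether the labelled material kept the strand is not stated in the labels, so a gene and its partner on the other strand are reported as uncertain where they overlap. None of the 4 RNAs was called, where 2.18% of all genes were. All 4 mean ratios were below 0, with a median of -0.56.

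Dlx1as followed Dlx1 across the arrays. Its log2 ratio was -1.37, -2.04, -4.25 and -5.00 on arrays 1 to 4, in the same order as Dlx1, and its probe lies 564 bases from that of Dlx1. The mean was -3.17 ± 1.74 (SD, n = 4), an 8.98-fold difference (adjusted p = 0.101, limma). As for Dlx1, the Cy5 level spread widely, from 7.82 to 11.10, while the Cy3 level stayed between 12.07 and 12.92. Dlx1 was lower than Dlx1as on all 4 arrays, by -0.21 to -1.82, with a mean difference of -0.81 ± 0.72 (SD, n = 4).

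The RNAs of the Dlx6 locus did not show the swing of Dlx6. Dlx6os2, whose probe lies 549 bases from that of Dlx6, had a ratio of -0.69, -0.27, -0.16 and -0.08, with a mean of -0.30 ± 0.27 (SD, n = 4, adjusted p = 0.428, limma). Dlx6os1, also known as Evf2, is transcribed from the enhancers between Dlx5 and Dlx6. Its ratio was -0.52, -0.96, 0.14 and 0.03 (mean -0.33 ± 0.51, SD, n = 4, adjusted p = 0.511, limma), and on array 3 it was not well above background in either channel. On array 3, Dlx6 exceeded Dlx6os2 by 4.05 and Dlx6os1 by 3.75. Over the arrays these differences were 1.42 ± 1.98 and 1.44 ± 1.83 (SD, n = 4). Dlx4os had a ratio of -1.05, -0.37, -1.37 and -0.36, with a mean of -0.79 ± 0.51 (SD, n = 4, adjusted p = 0.188, limma). Its lowest array was array 3, where Dlx4 was highest, but Dlx4 was well above background in neither channel there.

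The other Dlx1 probe gave no measurable signal on most arrays. It was well above background on 1 array in each channel, array 4, and its ratio was 0.09, -0.25, -0.07 and -0.34. It was designed on an Ensembl transcript, and its bases are 73.3% G or C. Its 60 bases match the RefSeq window before the Dlx1 start and reach from 91 to 32 bases before it, so the RefSeq transcript does not hold the probe. Among 32851 such windows of all genes, 1 holds it. The window is shown with the probe in capitals, from chr2:71529195-71529444 on the + strand of GRCm38.p6, and is 68% G or C.
Dlx1 window: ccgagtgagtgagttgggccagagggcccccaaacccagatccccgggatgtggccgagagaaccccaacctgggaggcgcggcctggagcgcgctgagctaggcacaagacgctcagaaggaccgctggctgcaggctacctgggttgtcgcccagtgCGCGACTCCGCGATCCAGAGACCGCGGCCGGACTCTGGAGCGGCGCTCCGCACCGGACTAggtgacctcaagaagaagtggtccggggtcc

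The ratio of that probe thus says little of Dlx1, and the Dlx1 values rest on 1 probe, as do those of every other member.

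The genes that flank the 3 pairs were measured with the same arrays to show what the neighbourhood did. Of 12 such genes, 11 were measured and none was called, where 2.18% of all genes were. Their median ratio was 0.10. Tac4, a tachykinin gene beside Dlx4, was too dim.

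Beside Dlx1 and Dlx2, Metap1d (a mitochondrial aminopeptidase) had a ratio of 0.21 ± 0.43 (SD, n = 4), Hat1 (a histone acetyltransferase) 0.65 ± 1.26, Tlk1 (a kinase of chromatin assembly) -0.31 ± 0.38 and Itga6 (an integrin subunit) -0.56 ± 0.16. Itga6 gave less Cy5 than Cy3 signal on all 4 arrays (adjusted p = 0.180, limma), but the mean of its other probe was 0.72. Hat1 reached 2.37 on array 3, and the mean of its other probe was -0.43. None of these came near the -3.97 of Dlx1, a value below which only 0.146% of all genes tested lay.

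Beside Dlx3 and Dlx4, the histone acetyltransferase gene Kat7 had a ratio of 0.40 ± 0.60 and the kinase gene Pdk2 0.10 ± 0.53 (SD, n = 4). The integrin gene Itga3 had -1.21 ± 1.86, with values of -2.66 and -2.95 on arrays 1 and 2 and of 0.59 and 0.20 on arrays 3 and 4. Its arrays fall on both sides of 0, unlike those of Dlx3 and Dlx4, although Dlx4 on array 3 was not well above background.

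Beside Dlx5 and Dlx6, the proteasome subunit gene Sem1 had a ratio of 0.39 ± 0.48, the mitochondrial assembly factor gene Sdhaf3 -0.59 ± 0.82, and Asns (asparagine synthetase) 0.03 ± 1.17 (SD, n = 4). Tac1, the substance P gene, had 0.69 ± 1.01 and its Cy3 signal rose well above background on 1 array. On array 3, where Dlx6 was at 3.88, Tac1 was at 2.13 and Asns at 1.52, while Sdhaf3 was at -1.81 and Sem1 at 0.04.

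Signals that act upstream of Dlx genes came from lists of the field's known pathway members. These lists and the lists below were chosen with earlier results of these data known. Endothelin 1 from the arch surface, acting through its receptor and Mef2c, switches on Dlx5 and Dlx6 in the lower jaw, and Hand2 is their target there. Of 11 genes of this pathway, 10 were measured. Against 2.18% of all genes, 1 of 10 was called, in the direction of more Cy3 signal. That gene was Hand2, with a ratio of -2.42, -2.28, -1.40 and -1.85 (mean -1.99 ± 0.46, SD, n = 4, adjusted p = 0.0291, limma), and it was well above background in Cy5 on 2 arrays. The median of the list was 0.01.

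Mef2c swung as Dlx5 and Dlx6 did. Its ratio was 1.54, 0.21, 4.51 and 0.61, again highest on array 3, with a mean of 1.72 ± 1.94 (SD, n = 4, adjusted p = 0.289, limma). The endothelin converting enzyme gene Ece1 had 0.10 ± 0.56. Edn1 itself was not kept by the filter on dim probes.

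BMP and FGF signals from the dental and arch epithelium set where Dlx genes are on. Of 20 such genes 18 were measured. Of these, 2 were called with more Cy3 signal and 2 with more Cy5 signal, and the median was 0.08. That is 22.2% called in a list chosen with earlier results known, against 2.18% of all genes. Bmp7 had a ratio of -4.32, -4.74, -4.48 and -4.74 (mean -4.57 ± 0.21, SD, n = 4, adjusted p = 0.00543, limma), and so lay lower than Dlx1 on average with a far smaller spread. Bmp2 was also lower in Cy5 (-2.82 ± 0.41, adjusted p = 0.0123, limma).

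The genes called with more Cy5 signal both belong to FGF signalling. The receptor gene Fgfr2 was higher in Cy5 (3.17 ± 0.78, SD, n = 4, adjusted p = 0.0227, limma), and so was Spry1, an inhibitor of FGF signalling (1.78 ± 0.57, adjusted p = 0.0478, limma). Fgfr1 at -0.31 ± 0.29 and the probe named for Fgf8 at 0.19 ± 0.19 were bright and not called, and another Fgf8 probe had -0.43.

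Homeobox and other factors that act beside or below Dlx genes in the jaw numbered 21, of which 19 were measured. Among them 3 were called with more Cy3 signal and 2 with more Cy5 signal, and the median was -0.34. That is 26.3% called in a list chosen with earlier results known, against 2.18% of all genes. Alx1, a homeobox gene of the facial mesenchyme, had a mean ratio of -2.86 ± 0.83 (SD, n = 4, adjusted p = 0.0325, limma). The LIM homeobox gene Lhx8 (-2.80 ± 0.75, adjusted p = 0.0283, limma) lay on the same side, with Cy5 well above background on 2 arrays.

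Meis2, a homeobox cofactor gene, was higher in Cy5, with values of 4.87, 4.39, 4.28 and 3.86 (mean 4.35 ± 0.42, SD, n = 4, adjusted p = 0.00577, limma) and Cy3 well above background on 2 arrays. The other gene called with more Cy5 signal was its relative Meis1 (1.90 ± 0.46, adjusted p = 0.0325, limma). The probe named for Lhx6, another LIM homeobox gene, had 0.01 ± 0.27 and was not called. It was the 1 kept of 3 such probes and very bright (mean log2 intensity 16.1). Whether it reads Lhx6 alone was not tested.

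Genes of bone and dentin that are reported to respond to Dlx3 or Dlx5 numbered 13, of which 12 were measured. They leaned to Cy5, with a median of 0.81, against 0.01 over all genes, and 10 of 12 mean ratios above 0. Most of the 12, among them Ibsp, Col1a1, Col1a2, Dspp and Dmp1, also stand in the osteoblast or odontoblast marker lists. The lean is therefore not separate from that of the markers. Against 2.18% of all genes, 1 of the 12 was called. That gene was Col1a2, given above. Ibsp, the bone sialoprotein gene, had 4.84, 3.42, 1.91 and 0.44 (mean 2.65 ± 1.90, SD, n = 4, adjusted p = 0.157, limma). Col1a1 had 1.80 ± 0.61 (adjusted p = 0.0524, limma). Dspp and Dmp1 were the members below 0.

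**Figure D4:**
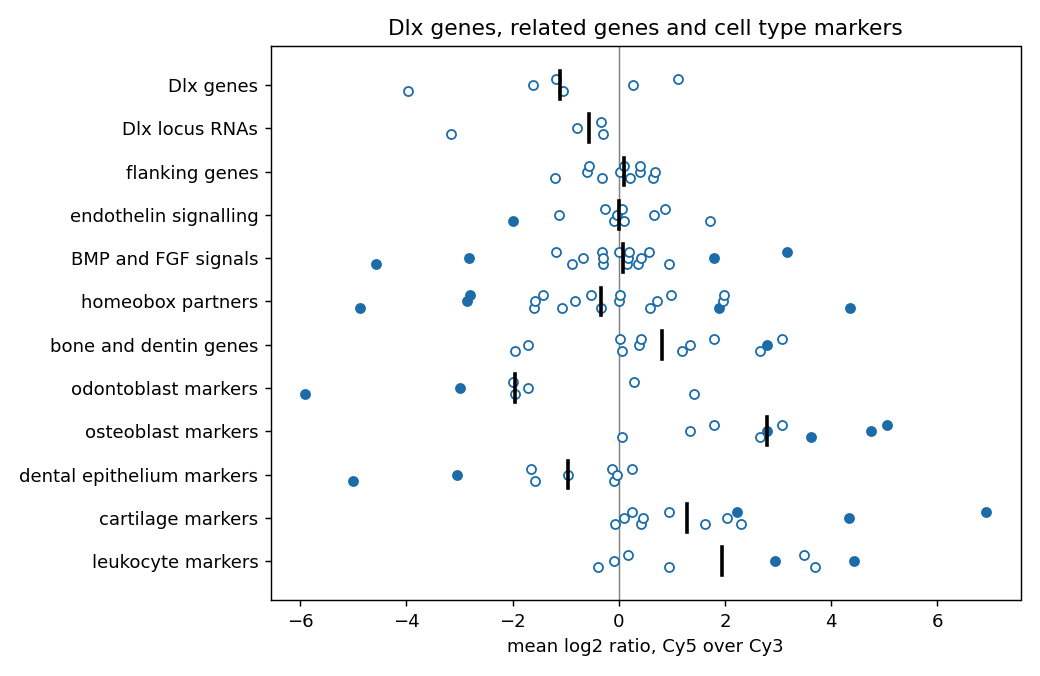
Mean log2 ratio (x axis) of each measured gene in the Dlx family, the lists of related genes and the cell type marker lists (rows), with filled points for genes called at an adjusted p under 0.05, open points for the others and a black bar at each median. The Dlx median lies at -1.11, the osteoblast markers at 2.79 and the odontoblast markers at -1.95.

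Markers of other cell types did not share 1 direction. Of 12 dental epithelium markers, cells that also express Dlx genes in the tooth, 9 were measured, with a median ratio of -1.41, -1.40, -0.24 and -1.33 on arrays 1 to 4. The enamel genes Odam (-5.00 ± 0.56, SD, n = 4, adjusted p = 0.00614, limma) and Ambn (-3.05 ± 0.76, adjusted p = 0.0237, limma) were higher in Cy3. They were the 2 called of the 9. The keratin genes Krt14 (-0.10) and Krt5 (-0.14) and the epithelial gene Epcam (-0.03) lay close to 0. The enamel gene Amelx (0.26) was the 1 member with a mean ratio above 0. In Cy3 all 9 stood clear of the background on all 4 arrays, and in Cy5 8 or 9 of them did. The median was 1.28 for 12 cartilage markers, of which 3 were called with more Cy5 signal, and 1.94 for 8 leukocyte markers, of which 2 were called with more Cy5 signal. Of these 8, 6 had a mean ratio above 0 and 2 below, Csf1r (-0.39) and Cd68 (-0.10). Kept probes ran from -2.84 to -0.39 for Csf1r and from -1.20 to -0.10 for Cd68. The median was 0.13 for 5 measured endothelial markers and 0.10 for 5 measured markers of forebrain GABA neurons, a cell type that relies on Dlx1 and Dlx2, with no call in either list. Of all genes, 2.18% were called. The part of other cell types in the Dlx values was not tested.

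The genes whose ratios lay closest to each Dlx gene were found by the Euclidean distance over the 4 arrays, among 16759 other named genes, as a description. For Dlx2 these were Scn10a (distance 0.220), a sodium channel gene, Enam (0.351), which encodes the enamel protein enamelin, and Tfap2a (0.606), a transcription factor gene of ectoderm and neural crest. Enam read -3.00, -2.10, 0.14 and -1.33 on arrays 1 to 4, beside -2.84, -2.16, -0.17 and -1.31 for Dlx2. For Dlx1 the nearest genes were more distant: Tppp (1.37), Myl10 (1.52) and Tinagl1 (1.97).

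For Dlx3 the nearest were the cyclin gene Ccnd1 (0.239), Cobll1 (0.297) and Dok4 (0.299), and for Dlx4 the Wnt receptor gene Fzd1 (0.272), Cep85l (0.356) and Pbld2 (0.432). For Dlx5 they were Whamm (0.187), Mrps9 (0.324) and Nop53 (0.328), and for Dlx6 Dhrs13 (0.694), Polr2k (0.708) and Rgs16 (0.711). No partner of a pair was eligible, since Dlx genes were left out of the pool.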

How the data were processed

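RNA of the 2 labelled cell preparations was hybridised to 4 Agilent two-colour arrays of 1 slide, scanned on 1 day, so no batch could be tested. Per the file headers, the authors deposited Feature Extraction 10.7.3.1 output with mean spot and median background intensity per channel. The deposited value table holds log10 ratios of the software's processed signals: 99.3% of its values matched the software's log ratio within 1e-04, with r = 1 and a median of 0 on each array. Aligners do not apply.

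Of 62976 spots, 3671 were controls. Background was corrected with normexp (offset 50), control spots had weight 0 in the loess within arrays, and 949 spot values with an outlier flag were left out. Spots of a probe were averaged, and a probe was kept where 1 channel was well above background on 3 or more arrays (44239 of 55681). The brightest kept probe stood for its gene. The mean log2 ratio was tested against 0 with limma 3.58.1 in R 4.3.3 (lmFit and eBayes), adjusted over 37228 features, of which 18553 had a gene symbol. Levels are log2 channel values after loess and Aquantile. The scripts were tested on simulated data.

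Symbols came from RefSeq by accession (27235 probes), as current (3581) or as older symbols (565), and 24300 probes had none. The file names of Dlx4os, Dlx6os1 and Dlx6os2 were A730090H04Rik, Dlx6as1 and Dlx6as2. Each array's ratio pairs its donor-matched samples, so the fit has the pairing built in. The number of arrays limits precision. The members and lists were chosen with earlier results of these data known. All Dlx probes, label check genes, locus RNAs and flanking genes are named, with up to 4 called genes of largest ratio and 2 brightest uncalled genes per other pathway list and the 3 nearest genes per member. Some genes that this rule selects are not reported here. Meis1, Smpd3 and Cpne7 were named in addition. From the marker lists of other cell types, Odam, Ambn, Amelx, Krt14, Krt5, Epcam, Csf1r and Cd68 were. All of these were named after their values were seen. Alternatives were the software's processed signals, the deposited table, median centring, scale normalization, no filter or a filter on both channels, flags ignored, the mean of a gene's probes, an intensity trend with robust fit, separate channels, and each array left out.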

Additional observations from a re-analysis of the deposited data

Results flagged for a closer look

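The gaps between arrays were compared with Dixon's critical value for 4 samples in 30 groups of 4 values, the ratio and both channel levels of each Dlx gene and locus RNA. Chance gives about 1 in 20 groups. The Cy3 level of Dlx6 on array 3 was 8.26, with the nearest array at 11.47, a gap of 0.891 of the whole range. The Cy3 level of Dlx1 on array 3 was 12.44, with the nearest array at 12.52, a gap of 0.862 of a range of only 0.09.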

How the results depend on the processing

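Of the 14 other fits tried for each gene, Dlx1 kept its direction in all, with ratios from -4.70 to -3.56 and adjusted p from 0.0198 to 0.189 (limma). It passed the threshold with median centring (-3.75, adjusted p = 0.0284) and, each time at -3.97, with a filter on both channels (0.0424), with the mean of the kept probes (0.0480), with an intensity trend and robust fit (0.0474) and with the channels fitted separately with no replicate block, so without the pairing (0.0198). In 4 of these (median centring, both channels, trend, no replicate block) 1 Dlx probe was called over all probes; in the other fits 0 were. Without 1 array the ratio ranged from -4.70 to -3.56 for Dlx1, -2.11 to -1.21 for Dlx2, -1.34 to -0.88 for Dlx3, -1.35 to -0.73 for Dlx4, -0.28 (without array 3, reversed) to 0.59 for Dlx5 and 0.19 (without array 3) to 1.72 for Dlx6. Dlx3 minus Dlx4 reversed with processed signals (0.38), the deposited table (0.38) and median centring (0.15), and without 1 array ranged from -0.61 to 0.21. The cause was not tested. The filter on both channels left no value for Dlx2 or Dlx4, nor for their pairs.

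Genes called on the whole array, 404 here, numbered 247 with processed signals, 259 with the deposited table, 1347 with median centring and 766 with no replicate block, and from 0 (without array 1 or array 2) to 28 (without array 4) and 167 (without array 3). At an unadjusted p under 0.05 without array 1 there were 3044 and without array 2 3250 (limma). Median centring moved the median gene from 0.01 to 0.21, and 83.1% of its calls were higher in Cy5, against 60.1%. The Dlx2 and Dlx4 probes lie near the background, which limits what they can show.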
